A study of Drosophila melanogaster with 35 samples.

Results

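Binding of the Drosophila lamin Lam to genes was measured in Kc167 cells grown with TSA (trichostatin A, which inhibits histone deacetylases) on 2 dye-swapped arrays that are described here, of 35 arrays in the series. Both were chosen by their labels: each holds DNA of cells expressing Dam-Lam over DNA of cells expressing Dam alone, both grown with TSA (100 nM for 24 h before lysis), as arrays 3688 (Dam-Lam in Cy3) and 3689 (Dam-Lam in Cy5). In DamID, Dam is an adenine methyltransferase of E. coli that is expressed at a low level from a transfected plasmid and marks DNA near the protein it is fused to. The 8 other arrays of the TSA experiment are 4 dye-swapped pairs: Dam-Lam delta CaaX over Dam, both with TSA, and the with-over-without-TSA ratios of Dam-Lam, of Dam-Lam delta CaaX and of Dam. Dam-Lam delta CaaX lacks the last 4 residues of Lam, which carry its membrane-targeting CaaX signal. The untreated ratio comes from 4 arrays of Dam-Lam over Dam (2907, 2921, 2945 and 2955), made from cells grown without TSA. Kc167 is a cell line of embryonic origin that keeps some hemocyte features, and all cells of a DamID sample carry a transfected Dam plasmid besides their own Lam.

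The lamina is a mesh of lamin filaments under the inner nuclear membrane, and the genes that touch it are known to be mostly silent, tissue-specific and clustered along the chromosomes. Lamins carry a C-terminal CaaX box that is farnesylated and helps to anchor them in the membrane. Histone deacetylases remove acetyl groups from histone tails, and their inhibition by TSA raises acetylation, which is generally linked to open chromatin. In a bulk ratio, contact in fewer cells and weaker contact per cell cannot be told apart.

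Each TSA array gave 7542 rows with a value, and 7089 units (6269 of them genes with a symbol, the others rows that name no single gene) were tested after centring and averaging rows of a gene. A ratio is given on the log2 scale as Dam-Lam over Dam, so that 1 means 2-fold more methylation with Dam-Lam; the log base and the direction are assumptions, since the sources used here do not state them. Across units the TSA arrays correlated with r = 0.77 and a Spearman coefficient of 0.75 (n = 7089), and 78.6% of units had the same sign on both. Both arrays may come from the same DNA samples, so these values describe the agreement of arrays only. Spread was smaller with TSA, with an SD across units of 0.36 and 0.32 on the TSA arrays, against 0.58, 0.60, 0.86 and 0.63 on the untreated arrays. Among untreated arrays, 2945 stood apart by its spread and its lower correlations with the others (r = 0.51 to 0.61). Hemocyte markers checked by the mRNA over genomic DNA ratio of untreated cells were mixed: Hml, SPARC and Ppn lay at percentiles 98.3, 96.9 and 87.7 of all units, while the phagocytosis receptor genes NimC1 and eater lay at 3.84 and 33.6. Col4a1, ush, srp, vkg and Pxn lay between these, at 67.2, 62.2, 57.4, 55.1 and 49.9. The neuronal nSyb, the fat body genes Yp1 and Lsp2 and the germline genes vas and bam lay at percentiles 19, 10.5, 0.966, 4.55 and 24.2. The muscle gene sls lay at 37 and the fat body gene Yp2 at 18.7. The Lam gene itself was not among the units tested.

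With TSA, 1379 units had a Lam ratio above 0 (19.5% of 7089) and 1033 had a ratio below 0 (14.6%) at an adjusted p under 0.05 in limma. Large ratios were few: 9 units (0.127%) were at least 2-fold above and 8 (0.113%) at least 2-fold below on both arrays, and 349 (4.92%) and 142 (2%) reached a log2 of 0.5 on both. Among called genes with a symbol, the high end was led by Rbfox1, ACXA and CG5539, and the low end by Spt3, Tctp and spab. The counts need both arrays, since 262 higher and 84 lower calls were left without array 3688, and 361 and 161 without array 3689. The labels do not say whether both arrays hold the same pair of DNA samples, in which case the p-values cover technical spread only.

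**Figure D1:**
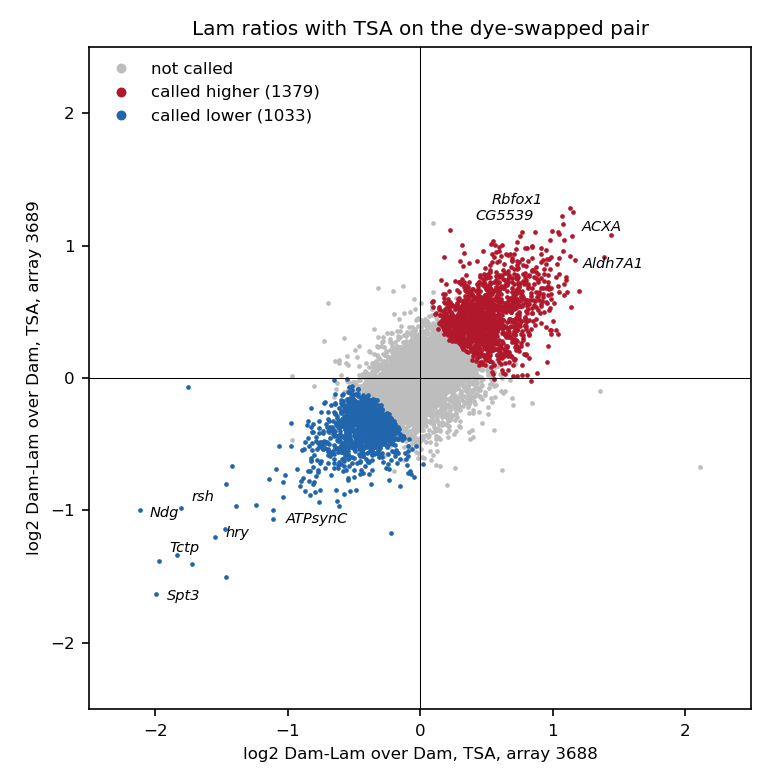
Centred log2 Dam-Lam over Dam ratio with TSA of 7089 units on array 3688 (x axis) and array 3689 (y axis); red points are the 1379 units called higher, blue points the 1033 called lower, grey points those not called. Spt3, Tctp, Ndg and hry lie at the far low end on both arrays, and Rbfox1, ACXA and CG5539 at the high end.

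The highest ratio among genes that passed the test belonged to Rbfox1, which encodes an RNA-binding regulator of splicing. Its ratio was 1.13 and 1.29 on the TSA arrays, against 2.21, 2.44, 1.90 and 2.46 on the untreated arrays. All arrays were high, the TSA arrays lay below each untreated array, and the TSA mean was 1.21 (SE 0.10, adjusted p = 3.72e-05, limma). CG3777 had 1.08 and 1.16 with TSA, against 2.11, 1.92, 1.52 and 1.77 untreated. Rsod, a gene related to superoxide dismutase, had 1.15 and 1.07 with TSA, against 1.60, 1.97, 2.05 and 1.80 untreated. Both genes were thus high on every array and lower with TSA than on any untreated array. Together with the row LD22322, which names no single gene, Rbfox1, CG3777 and Rsod were the 4 units at least 2-fold high on both TSA arrays and all untreated arrays.

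ACXA and Prosbeta4R1, genes known for expression in the testis, followed Rbfox1 in the top group. ACXA, which encodes an adenylyl cyclase, had 1.16 and 1.26 with TSA (mean 1.21, SE 0.13, adjusted p = 1.00e-04, limma) and no value on the untreated arrays used here. Prosbeta4R1, a relative of the proteasome subunit gene Prosbeta4, had 1.08 and 1.04 with TSA, against 0.74, 1.31, 1.25 and 2.02 untreated. Its TSA values lay within the untreated range. Aldh7A1, an aldehyde dehydrogenase gene, had 1.17 and 0.89 with TSA, against 1.48, 0.95, 1.90 and 0.88 untreated, again with overlap. The remaining genes of the top 12 had mean ratios between 0.98 and 1.15 with TSA.

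Of the 12 highest genes, 8 of the 11 tested untreated were also called higher there (19.6% of all units were), and 3 were not. The untreated calls depend on single arrays, as given below. CG5539 had 1.07 and 1.22 with TSA, against 0.25, 0.06, 0.07 and 0.11 untreated, with no overlap of the groups (difference 1.03, SE 0.15, adjusted p = 0.00582, limma). CG4681 had 0.87 and 1.10 with TSA, against 0.02, 0.35, -0.35 and -0.05 untreated, also without overlap (difference 0.99, SE 0.22, adjusted p = 0.0185, limma). Within the TSA experiment, the change of Dam-Lam with TSA minus that of Dam, from 4 other arrays, was 0.42 for CG5539 (adjusted p = 0.0599) and 0.61 for CG4681 (adjusted p = 0.0468, limma). Those arrays hold the same Dam-Lam and Dam DNA with TSA, as modelled here. This change, here and below, is thus not independent of the TSA ratio. CG7551 had 0.99 and 1.11 with TSA, against 0.45, 1.23, 0.47 and -0.31 untreated. Its TSA values fell inside the untreated range, and the difference of 0.59 (SE 0.30) had an adjusted p of 0.226 in limma.

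**Figure D2:**
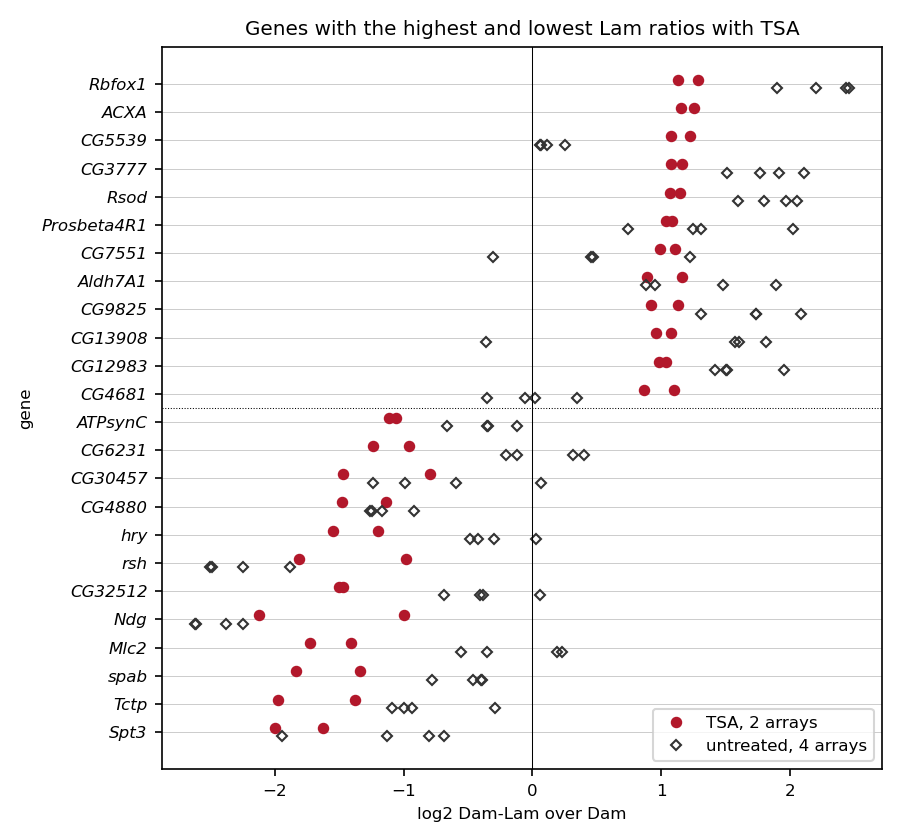
Log2 Dam-Lam over Dam ratio (x axis) of the 12 highest and the 12 lowest genes with TSA (rows); filled circles are the 2 TSA arrays, open diamonds the 4 untreated arrays. Rbfox1, CG3777 and Rsod are high in both conditions, CG5539 and CG4681 are near 0 untreated, and Mlc2 and CG6231 are low with TSA and near 0 untreated.

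The lowest ratio was that of Spt3, a subunit of the SAGA histone acetyltransferase complex. It had -1.995 and -1.63 with TSA, against -0.68, -1.13, -1.94 and -0.80 untreated, so that both groups were low and overlapped. Its TSA mean was -1.81 (SE 0.15, adjusted p = 3.72e-05, limma). Tctp, a growth regulator, had -1.97 and -1.38 with TSA, against -0.29, -0.93, -0.997 and -1.09 untreated, with both TSA arrays below every untreated one (difference -0.85, SE 0.21, adjusted p = 0.0301, limma). Its change of Dam-Lam minus that of Dam within the TSA experiment was -0.001 (adjusted p = 0.997, limma). Ndg, which encodes the basement membrane protein nidogen, had -2.12 and -0.9996 with TSA, against -2.25, -2.62, -2.38 and -2.61 untreated. Here the untreated arrays were the lower ones (difference 0.90, SE 0.26, adjusted p = 0.0445, limma).

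Several of the lowest genes were near 0 in untreated cells: of the 12 lowest, 7 were called lower untreated (15% of all units were) and 5 were not. Mlc2, the muscle myosin regulatory light chain gene, had -1.72 and -1.41 with TSA, against 0.19, -0.35, -0.56 and 0.23 untreated, without overlap (difference -1.44, SE 0.26, adjusted p = 0.0104, limma). The segmentation gene hry (hairy), a transcriptional repressor, had -1.55 and -1.20 with TSA, against -0.29, -0.48, 0.03 and -0.42 untreated (difference -1.08, SE 0.18, adjusted p = 0.00873, limma). ATPsynC, which encodes the ring subunit c of ATP synthase, had -1.11 and -1.06 with TSA, against -0.35, -0.12, -0.36 and -0.66 untreated. In each of these 3 genes the TSA arrays lay below all untreated arrays. A ratio within the TSA experiment gave other values for the same genes: the change of Dam-Lam with TSA minus that of Dam was 0.06 for Mlc2 (adjusted p = 0.856), -0.58 for hry (adjusted p = 0.0135) and -0.37 for ATPsynC (adjusted p = 0.0461, limma). For Mlc2 this second value was near 0.

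The Lam ratio can be set against that of Dam-Lam delta CaaX over Dam, both with TSA, which shares the Dam DNA. The difference between both fusions passed the test upward in 227 units (3.2% of 7089) and downward in 6 (0.0846%, adjusted p under 0.05, limma). It depended on each of the 4 arrays that carry it: the counts were 0 and 1 without array 3688, 1 and 1 without 3689, 40 and 7 without 3694, and 0 and 0 without 3695 (743 and 246 at an unadjusted p under 0.05). Without a dye term they were 0 and 0 as well (751 and 163 unadjusted). The delta CaaX arrays correlated with r = 0.44 across units (n = 7089).

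Among the 12 highest genes, 9 had a higher ratio for Lam than for Lam delta CaaX by this test, whereas the 12 lowest held 1 such gene in the low direction. These genes were chosen by the Lam ratio that enters the difference. The choice itself favours a difference, so the counts are no separate evidence. Prosbeta4R1 had 1.08 and 1.04 for Lam, against -0.27 and 0.20 for Lam delta CaaX (difference 1.09, adjusted p = 0.0340, limma). Rbfox1 had 1.13 and 1.29 for Lam, against 0.10 and 0.38 for Lam delta CaaX (difference 0.97, adjusted p = 0.0226, limma). In both genes the high ratio was that of Lam, and delta CaaX was near 0. Spt3 had -1.995 and -1.63 for Lam, against -1.40 and -1.80 for Lam delta CaaX, and Tctp had -1.97 and -1.38 for Lam, against -1.53 and -1.71 for Lam delta CaaX. The ratios overlapped in these genes, and the difference was -0.21 (adjusted p = 0.658) for Spt3 and -0.06 (adjusted p = 0.909, limma) for Tctp. Over the 12 lowest genes the delta CaaX mean ran from -1.62 to -0.73. The exception was Ndg, with -2.12 and -0.9996 for Lam, against -1.24 and -0.22 for Lam delta CaaX (difference -0.83, adjusted p = 0.0419, limma). The part that the shared Dam DNA has in the low ratios was not tested.

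Other genes with a larger ratio for Lam than for Lam delta CaaX were CG14626, Ntl, CG13243 and CG2871, by 1.08, 1.06, 1.05 and 1.01. Ntl encodes a neurotransmitter transporter family member that acts in sperm development. In the low direction CG1738, Mt2, ND-B22, Trs31 and CG3862 differed by -0.78, -0.73, -0.72, -0.67 and -0.53. ND-B22 is a subunit gene of respiratory complex I and Mt2 a DNA and tRNA methyltransferase gene.

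High ratios were mostly retained from untreated cells. In the 6856 units tested in both conditions, 840 (12.3%) were called higher with TSA and untreated, which is 61.8% of the 1359 calls with TSA and 62.5% of the 1345 untreated calls (19.8% and 19.6% of all units were called higher). Low ratios gave a smaller count: 318 units (4.64%) were called lower in both, which is 31.9% of the 996 calls with TSA and 31.0% of the 1025 untreated calls (14.5% and 15% of all units). The shares depended on the untreated arrays, with 153 and 12 shared calls without array 2907 and 6 and 3 without 2921. Without array 3688 they were 198 and 31, without 3689 they were 252 and 50, and without 2945 they were 962 and 482. A count that uses no untreated p gave the same order: of the units called with TSA, 75.1% of the higher and 49.3% of the lower ones lay on the same side of 0 on every untreated array (28.6% and 28.1% of all units did). The difference between the high and the low share itself was not tested.

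Among the genes low in both conditions were rsh, CG4880, Spt3, tud and Ndg. rsh (radish), a gene with a role in fly memory, had -1.81 and -0.98 with TSA, against -2.51, -2.48, -2.25 and -1.88 untreated. tud, which encodes the germ plasm protein Tudor, had -0.90 and -0.78 with TSA, against -0.83, -0.75, -0.97 and -1.53 untreated. CG4880 had -1.48 and -1.14 with TSA, against -1.17, -0.92, -1.24 and -1.26 untreated. The groups overlapped in tud and CG4880, while in rsh both TSA arrays lay above every untreated one.

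Direct calls of opposite sign were rare: 7 units were called higher with TSA and lower untreated, and 19 the other way round. The chromatin remodeler gene dom (Domino), in the Tip60 complex, had 0.53 and 0.48 with TSA, against -0.55, -0.54, -0.54 and -0.44 untreated (difference 1.02, SE 0.14, adjusted p = 0.00442, limma). The nucleoporin gene Nup133 had 0.40 and 0.29 with TSA, against -0.78, -0.56, -0.45 and -0.12 untreated (difference 0.82, SE 0.19, adjusted p = 0.0235, limma). Both were above 0 on all TSA arrays and below 0 on all untreated ones. In each gene, leaving out at least 1 of the 2 TSA arrays removed the call with TSA. Over all units, few differences passed the test with either TSA array left out, as given below. Within the TSA experiment, the change of Dam-Lam minus that of Dam was 0.71 for dom (adjusted p = 0.00371) and 0.40 for Nup133 (adjusted p = 0.0826, limma). Gs2, a glutamine synthetase gene, had -0.57 and -0.38 with TSA, against 0.30, 0.62, 1.81 and 0.70 untreated. Csp, which encodes the synaptic cysteine string protein, had -0.65 and -0.25 with TSA, against 0.39, 0.83, 0.81 and 0.28 untreated. Gs2 and Csp were named after their values were seen.

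The ratio with TSA minus the untreated ratio passed the test upward in 297 units (4.33% of 6865) and downward in 399 (5.81%, adjusted p under 0.05, limma). TSA ratios lay nearer 0 in most of them: of the 399 lower units, 393 had an untreated ratio above 0 and 348 were nearer 0 with TSA (median 0.18 with TSA and 0.98 untreated), and 159 were still called higher with TSA. Of the 297 higher units, 293 had an untreated ratio below 0 and 262 were nearer 0 with TSA (median 0.01 with TSA and -0.73 untreated), and 19 were still called lower with TSA. These units were chosen by the same difference, which itself favours an untreated ratio far from 0 and a TSA ratio nearer 0. How much of these counts the choice sets was not tested. The narrower spread of the TSA arrays moves with these counts too, and with arrays scaled to equal spread 172 higher and 190 lower calls were left. The counts were 1 and 0 without array 3688, 4 and 3 without 3689, 552 and 642 without 2945, and 474 and 622 without 2955. On the 2 TSA and 4 untreated arrays alone no unit passed (494 and 643 at an unadjusted p under 0.05). The change of Dam-Lam with TSA minus that of Dam, on 4 other arrays of the TSA experiment (3686, 3687, 3690 and 3691), passed upward in 879 units (12.4% of 7089) and downward in 1247 (17.6%). It shares the Dam-Lam and Dam DNA with TSA, as modelled here, with arrays 3688 and 3689, so it is no independent check. Those counts were 0 and 0 with arrays scaled to equal spread (455 and 666 at an unadjusted p under 0.05), 219 and 497 without 3686, 360 and 643 without 3687, and 530 and 824 without 3690. TSA and array set cannot be told apart in the difference from the untreated arrays, since the untreated arrays belong to another experiment of the series.

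**Figure D3:**
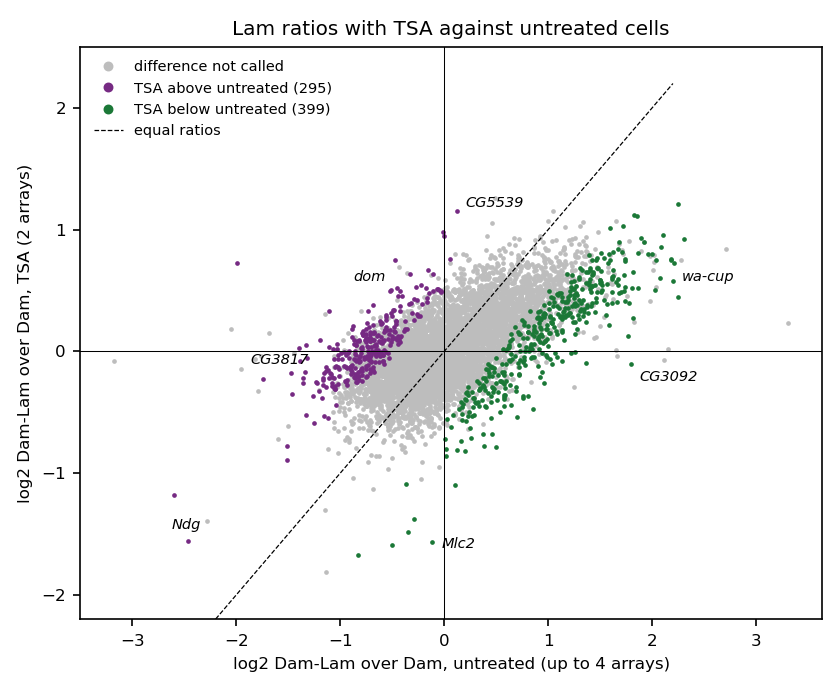
Log2 Dam-Lam over Dam ratio with TSA (y axis) against the untreated ratio (x axis), 1 point per unit; purple points have a ratio above untreated (295 of the 297 called, as 2 have no untreated mean), green points below (399). Most coloured points have a TSA ratio nearer 0 than the untreated ratio, and the dashed line marks equal ratios.

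Among the genes with a lower ratio with TSA, CG3092 had -0.33 and 0.13 with TSA, against 1.85, 1.45, 2.59 and 1.32 untreated (difference -1.90, SE 0.30, adjusted p = 0.00657, limma). CG11227 had 0.16 and 0.74 with TSA, against 2.11, 2.32, 2.404 and 2.18 untreated (difference -1.80, SE 0.18, adjusted p = 9.30e-04, limma). Fife, which encodes a protein of the presynaptic active zone, had 0.19 and 0.06 with TSA, against 1.32, 1.78, 2.35 and 1.62 untreated. None of these 3 genes had overlapping groups, which the choice of genes by the largest difference favours. wa-cup, Nep6 and CG3330 differed by -1.63, -1.54 and -1.52. Within the TSA experiment, the change of Dam-Lam minus that of Dam was -1.36 for CG3092, -1.26 for CG11227, -1.05 for wa-cup, -1.35 for Nep6 and -1.45 for CG3330 (adjusted p between 2.96e-04 and 9.71e-04, limma), but -0.11 for Fife (adjusted p = 0.582).

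In the other direction CG3817 had -0.22 and -0.23 with TSA, against -1.75, -1.80, -1.87 and -1.57 untreated (difference 1.52, SE 0.15, adjusted p = 9.30e-04, limma). rgr had -0.02 and 0.08 with TSA, against -1.74, -1.12, -1.46 and -1.29 untreated. cyst had 0.02 and 0.09 with TSA, against -0.78, -1.30, -1.95 and -1.30 untreated. In all 3, chosen by their difference as well, the TSA arrays were near 0 and the untreated arrays low. The change of Dam-Lam minus that of Dam within the TSA experiment was smaller, at 0.45 for CG3817 (adjusted p = 0.0273), 0.33 for rgr (adjusted p = 0.106) and 0.31 for cyst (adjusted p = 0.152, limma). Chc, the clathrin heavy chain gene, had the largest difference (3.78, adjusted p = 2.96e-04, limma), with -0.18 and 0.04 with TSA, but a single untreated value of -3.73 on array 2921.

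Gene lists are described next. The lists and their members were chosen with earlier results of these data known, so their counts are no separate evidence. Over all units 19.5% were called higher and 14.6% lower with TSA, against 19.6% and 15% untreated. Among 32 neuronal genes, 16 were called higher and 0 lower with TSA, and 20 of 31 higher and 0 lower untreated, with a median of 0.30 with TSA and 0.63 untreated (all units, 0.00 and -0.03). Besides Rbfox1, dpr8, a cell surface immunoglobulin gene, had 0.78 and 0.86 with TSA, against 1.34, 1.40, 1.98 and 1.78 untreated. futsch, which encodes a microtubule-associated protein of neurons, had 0.97 and 0.63 with TSA, against 0.13, 0.23, -0.39 and 0.45 untreated. The TSA arrays were below all untreated ones in dpr8 and above all in futsch, although the difference did not pass the test in futsch (0.69, SE 0.23, adjusted p = 0.0712, limma). Sh, slo, Shab, cac and Ca-alpha1D, ion channel genes picked after their values were seen, had means of 0.28, 0.30, 0.55, 0.40 and 0.59 and were called higher. The channel genes sei, nAChRbeta1 and GluRIIB, with 0.0024, -0.18 and 0.44, were not called. The 5 neuronal genes below untreated by the test were Rbfox1, dpr8, Ca-alpha1D, Ace (acetylcholinesterase) and trn.

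Of 24 muscle structural genes, 10 were called higher and 2 lower with TSA (19.5% and 14.6% of all units). Untreated, 15 were higher and 0 lower (19.6% and 15% of all units). sls, which encodes a titin-like protein, had 0.98 and 0.53 with TSA, against 1.80, 1.59, 4.24 and 1.49 untreated. The projectin gene bt on chromosome 4 had 0.47 and 0.12 with TSA, against 1.51, 1.63, 1.71 and 1.38 untreated (difference -1.26, adjusted p = 0.00398, limma). Both genes were high untreated and lower on both TSA arrays, but the difference did not pass the test in sls (-1.53, SE 0.54, adjusted p = 0.0914, limma), where array 2945 lay far above the other untreated ones. The 2 lower genes were Mlc2 and TpnC41C, a troponin C gene (mean -0.74).

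In the list named fat body and yolk, genes were called higher in 9 of 15 and lower in 0 of 15 with TSA (19.5% and 14.6% of all units). Its members are not all particular to the fat body. The amylase genes Amy-d and Amy-p and the gene alphaTry, all called higher, are among them, and alphaTry is also in the gut serine protease list. Yp2, a yolk protein gene, had 0.69 and 0.56. Developmental transcription factors were called higher in 22 of 55 and lower in 4, with gsb-n and wor at means of 0.88 and 0.74 and hry at the other end. Cytochrome P450 genes were called higher in 16 of 45 and lower in 2. Cyp4g1, an enzyme of cuticular hydrocarbon synthesis, had 0.93 and 0.89 with TSA, against 1.11, 1.39, 0.75 and 0.91 untreated, so that the groups overlapped. Cyp28a5 had 0.80 and 0.98 with TSA, against 1.82, 1.89, 2.19 and 1.79 untreated (difference -1.03, adjusted p = 0.00657, limma), without overlap.

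Of 28 male germline genes, 10 were called higher and 0 lower with TSA, against 8 higher and 3 lower untreated. Of all units 19.5% were called higher and 14.6% lower with TSA. heph, which encodes a polypyrimidine tract-binding protein, comr, a meiotic arrest gene, and the protamine gene ProtB had means of 0.91, 0.79 and 0.74. Cuticle protein genes were called higher in 16 of 52 and lower in 1. The chemosensory, gut serine protease and female germline lists are small, with 2 of 13, 2 of 18 and 0 of 11 higher (15.4%, 11.1% and 0%). In these lists 0, 0 and 1 were lower. Of 4 glue and larval secreted genes 2 were higher and 0 lower. Glutathione transferase and UDP-glycosyltransferase genes were near the shares of all units with TSA, 5 higher and 4 lower of 31 (16.1% and 12.9%). Untreated, 11 were higher and 0 lower of 30 (19.6% and 15% of all units).

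Hemocyte genes, some features of which the line keeps, were called higher in 6 and lower in 5 of 22 with TSA. These are 27.3% and 22.7%, against 19.5% and 14.6% of all units. NimC1 and eater had means of 0.83 and 0.72 with TSA, and 1.00 and 1.22 untreated, and Ndg had the lowest ratio of the list. Immune response genes were 7 higher and 3 lower of 23, with Tep3 (0.85), the Toll receptor gene Tl (0.69) and the lysozyme gene LysS (0.66) at the top.

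**Figure D4:**
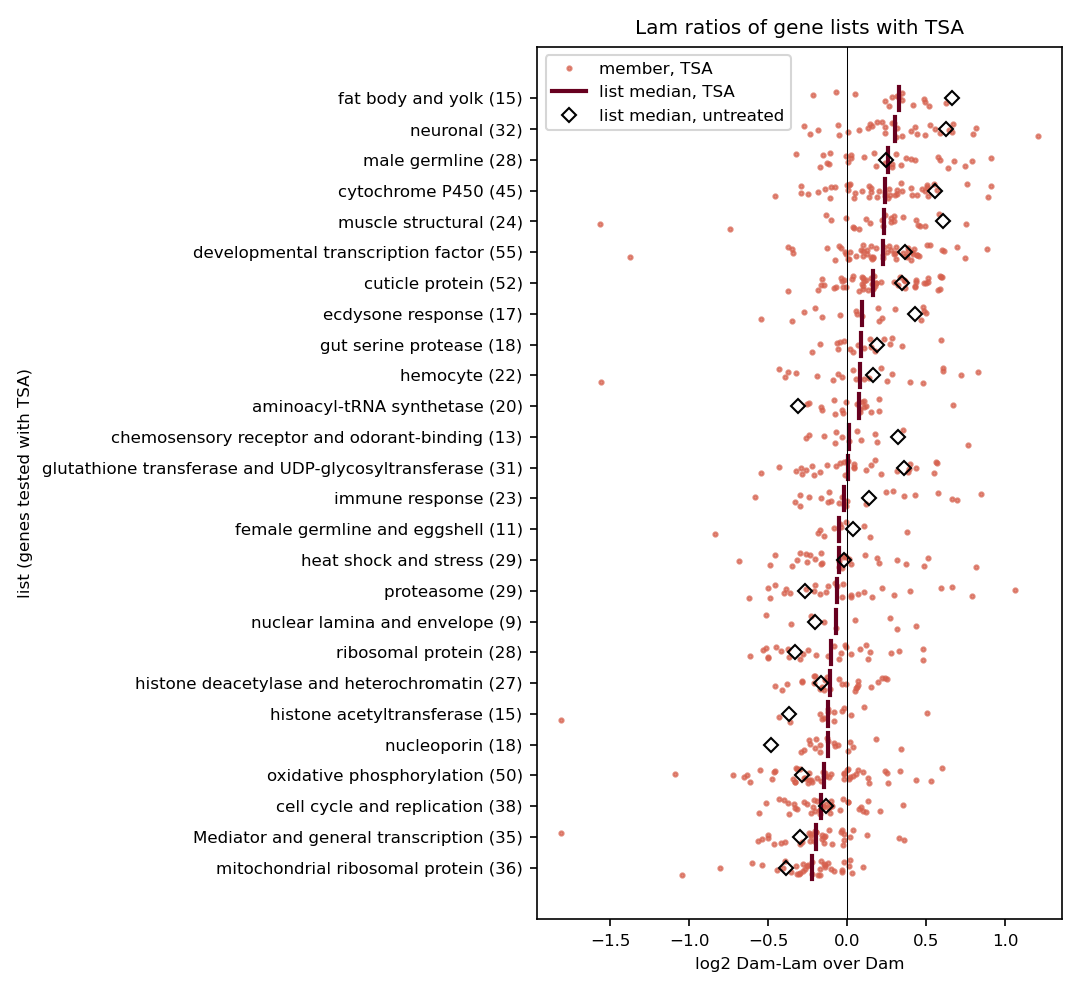
Log2 Dam-Lam over Dam ratio (x axis) of gene lists with at least 5 tested members (rows, ordered by TSA median); dots are member genes with TSA, dark bars the list median with TSA, open diamonds the list median untreated. With TSA the medians of the fat body, neuronal, male germline, P450 and muscle lists lie above 0 and those of the mitochondrial and transcription lists below 0, and the nucleoporin and aminoacyl-tRNA synthetase diamonds lie left of their bars.

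Of 36 mitochondrial ribosomal protein genes 13 were called lower and 0 higher (14.6% and 19.5% of all units), of 50 oxidative phosphorylation genes 15 lower and 4 higher, and of 28 cytosolic ribosomal protein genes 10 lower and 2 higher. mRpL17 had -0.81 and -0.80 with TSA, against 0.58, -0.09, -0.11 and -0.32 untreated, below all untreated arrays (difference -0.82, SE 0.19, adjusted p = 0.0235, limma). Its change of Dam-Lam minus that of Dam within the TSA experiment was -0.28 (adjusted p = 0.148, limma). ND-B14.5A, a complex I subunit gene, had -0.83 and -0.62 with TSA, against 0.07, -0.47, -1.01 and -0.92 untreated. RpL15 had -0.79 and -0.44 with TSA, against -0.81, -0.19, -0.66 and -0.52 untreated, and both of these genes had overlapping groups. Mediator and general transcription genes were called lower in 10 of 35 and higher in 2, and cell cycle and replication genes lower in 8 of 38 and higher in 1, the cyclin and kinase genes Cdk4, CycB and CycD having means of -0.56, -0.52 and -0.43.

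Proteasome genes were called lower in 27.6% and higher in 17.2% with TSA (14.6% and 19.5% of all units). Of 29, 8 were called lower and 5 higher, and the highest were Prosbeta4R1, Prosbeta4R2 and Rpn13R (1.06, 0.79 and 0.66), relatives of subunit genes; Prosbeta4R1 and Prosbeta4R2 are close copies, and DNA of either could hybridise to the probes of both. Prosbeta4R2 had 0.98 and 0.59 with TSA, against 1.93, 1.57, 1.97 and 0.90 untreated. Heat shock and stress genes were called higher in 4 and lower in 6 of 29 (13.8% and 20.7%), not far from the shares of all units. Hsp60B, a chaperonin gene of the testis, had 0.87 and 0.76 with TSA, while Trx2, a thioredoxin gene, had -0.82 and -0.55 with TSA, against 0.67, 0.22, 0.33 and 0.27 untreated (difference -1.05, adjusted p = 0.00657, limma).

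Of 18 nucleoporin genes, whose products form the nuclear pore, 1 was called higher and 1 lower with TSA (19.5% and 14.6% of all units). Untreated, 1 was higher and 11 lower (19.6% and 15% of all units). By the test of the difference, 6 had a ratio above untreated (4.33% of all units did). Elys, whose product binds chromatin, had a mean of -0.17 with TSA and -1.47 untreated (difference 1.30, adjusted p = 0.00815, limma). Nup358, Nup205, Nup153 and Nup75 differed by 0.78, 0.74, 0.65 and 0.51. Within the TSA experiment, the change of Dam-Lam minus that of Dam was 0.61 for Elys, 0.90 for Nup358, 0.79 for Nup153 and 0.54 for Nup75 (adjusted p between 0.00132 and 0.0203, limma), but 0.09 for Nup205 (adjusted p = 0.684). Of 20 aminoacyl-tRNA synthetase genes, 1 was called higher and 0 lower with TSA, against 0 higher and 8 lower of 19 untreated. The shares of all units are those given above, and 4 of the synthetase genes were above untreated by the test. LeuRS had 0.53 and 0.82 with TSA, against -0.31, -0.08, -0.06 and -0.17 untreated, without overlap, and GluProRS, AsnRS and LeuRS-m were above untreated too. These calls rest on both TSA arrays, since over all units 1 was above untreated without array 3688 and 4 without 3689.

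Genes of histone deacetylases and heterochromatin were called lower in 4 of 27 (14.8%) and higher in 0, against 14.6% and 19.5% of all units, with HP1b and phol at -0.46 and -0.41. Of 15 histone acetyltransferase genes, 3 were lower (Spt3 and Tip60 among them) and dom was higher. Of 9 lamina and envelope genes, 1 was higher (the nesprin gene Msp300, 0.44) and 1 lower. Ecdysone response genes were called higher in 4 of 17 and lower in 2, with ImpE2 at 0.50 and ImpE3 at -0.54. EcR and br had means of 0.06 and 0.06 and were not called.

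High Lam ratios with TSA lay mostly in genes with little transcript in untreated cells. In 5 groups of units of equal size, ordered from low to high mRNA over genomic DNA ratio, the percent of units called higher was 48.5, 28.4, 12.2, 6.26 and 3.79, and the percent called lower was 1.97, 8.67, 14.9, 19.8 and 27.2 (1373 or 1374 units each). Median ratios with TSA went down with transcript level, at 0.30, 0.11, -0.03, -0.10 and -0.17, and untreated medians were 0.45, 0.16, -0.17, -0.19 and -0.20. Across 6866 units r was -0.48 and the Spearman coefficient was -0.52. The transcript ratio is from untreated cells, so it does not give transcript levels under TSA.

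**Figure D5:**
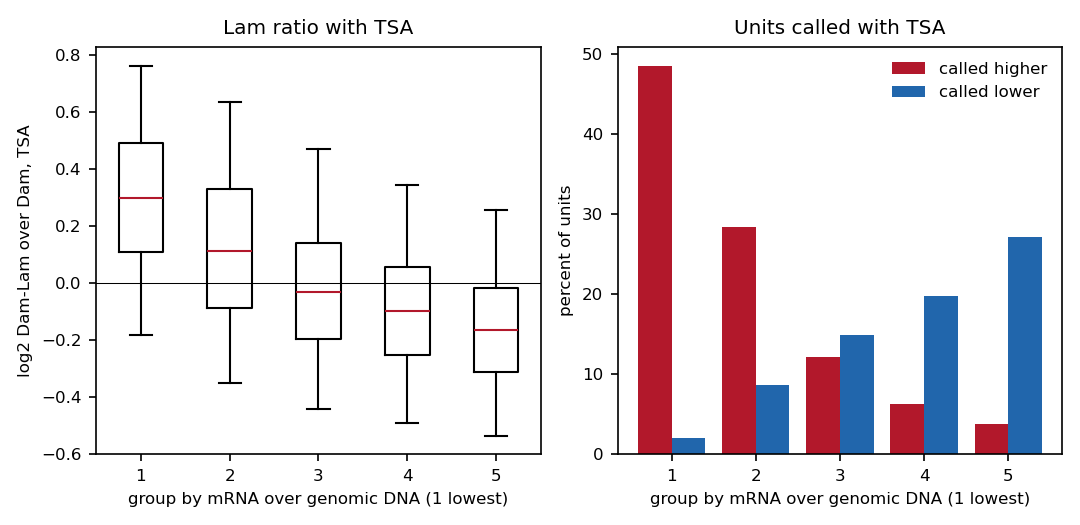
Left, Lam ratio with TSA (log2) in 5 equal groups by the mRNA over genomic DNA ratio of untreated cells (boxes are quartiles, red lines medians, whiskers the percentiles 5 and 95); right, percent of units called higher (red) and lower (blue) in each group. The share called higher is 48.5% in the lowest group and 3.79% in the highest.

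Some genes departed from this. In the group with most transcript 52 units were called higher, led by fdl, Ppn and CG13101 (0.67, 0.61 and 0.60). Ppn, the papilin gene of the extracellular matrix, had 0.73 and 0.49 with TSA, against 1.38, 1.22, 1.37 and 1.20 untreated. In the group with least transcript 27 units were called lower, led by CG2070 and Bruce. Bruce, an inhibitor of apoptosis gene, had -0.66 and -0.38 with TSA, against -1.22, -1.24, -1.23 and -1.63 untreated. These genes were named after their values were seen.

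The shares also differed by the source library of the clones (19.5% of all units were called higher and 14.6% lower). Genes named by clones of the AT (testis) library were called higher in 42.1% of 520, those of LP (larvae and pupae) in 34.2% of 325 and those of GH (adult head) in 28.3% of 1483. Genes of the LD (embryo) library were called higher in 8.48% of 1851 and those of GM (ovary) in 6.56% of 320. For the RE, HL, RH and SD libraries it was 21.4% of 1085, 18% of 89, 17.2% of 429 and 12.5% of 542. GM genes were called lower in 20.3% and RH genes in 21%, against 5.38% for AT genes. The letters of a clone stand for its source library, and the median mRNA over genomic DNA ratio (log2) was -1.18 for AT and 1.09 for GM. It was -0.68 for RE, -0.57 for GH and -0.43 for RH. The order of the libraries by calls was thus not that by transcript throughout.

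Called genes lay beside each other on the chromosomes. Of 6158 pairs of neighbouring measured genes, the gene after one called higher was called higher in 41.1%, against 19.9% for any gene, and the gene after one called lower was called lower in 23.0%, against 14.3%. The ratios of neighbours correlated with r = 0.34 across pairs, and the probes or fragments of neighbours can share DNA. There were 25 runs of at least 5 genes called higher. The longest held 10 genes on 3R, from tmod through CG9702 and the prolyl hydroxylase genes PH4alphaNE3 and PH4alphaPV to eIF4H2, with ratios between 0.51 and 0.93. On the X, ewg, CG3777, l(1)sc, ase, Cyp4g1 and ebo formed a run of 6, which holds genes of the proneural achaete-scute complex (l(1)sc and ase). Of 4 runs of genes called lower, the longest had 11 genes on 2R, from Stlk to COX4L, between -0.74 and -0.34.

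Of the arms, chromosome 4, which is small and rich in heterochromatin, had the highest percent of low calls. Of its 38 tested genes, 4 were called higher and 14 lower with TSA (10.5% and 36.8%), against 27.0% and 13.5% of 37 untreated, and its median was -0.20 with TSA and -0.01 untreated. Of the 37, 6 were below and 0 above untreated by the test. Among them toy, a Pax6 gene of eye development, had -0.36 and -0.32 with TSA, against 0.36, 0.22, 0.22 and 0.06 untreated (difference -0.55, adjusted p = 0.0371, limma). Gat, the GABA transporter gene, had -0.09 and 0.38 with TSA, against 0.73, 0.89, 1.09 and 1.36 untreated. The 40 genes nearest the centromere of 2R were called lower in 20 and higher in 5 with TSA, against 12 and 4 of 39 untreated. Lower and higher calls with TSA among the 40 genes at the other arms' centromeres were 14 and 2 on 3R, 9 and 7 on 2L, 6 and 7 on X and 5 and 8 on 3L. The arm ends and chromosome 4 were picked after their values were seen. Over the larger arms the percent called higher with TSA lay between 18.7 (X) and 21.2 (2L), and the percent called lower between 13.4 (2R) and 15.4 (3R).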

How the data were processed

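Ratios were compared on 2 arrays of Dam-Lam over Dam with TSA, the 8 other arrays of the TSA experiment, 4 untreated Dam-Lam over Dam arrays and 2 arrays of mRNA over genomic DNA. The values deposited by the authors are log ratios of both channels, taken as log2, made with limma per the submitters' processing notes; their background correction, normalization, log base and direction are not given there. Channel 1 over channel 2 was assumed. No spot intensities were used, so limits from spot signal or background could not be seen, besides that from the number of arrays. Arrays were centred on their median, and rows of a gene were averaged (529 of 7089 units). Of 9006 rows, 7843 named 1 gene, 246 several and 917 none in the platform annotation; rows without a single gene were kept unnamed. Units needed a value on both TSA arrays and on 75% of the arrays of a fit.

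One linear model covered the 6 DNA samples on the 10 TSA arrays, with a dye term (limma 3.58.1, lmFit then eBayes, R 4.3.3). No array loop closes, so the Lam ratio rests on 2 arrays and its spread on all 10 (median SE 0.11). Untreated arrays were fitted alone and, for the difference, with the TSA arrays. Tests were two-sided with Benjamini-Hochberg adjustment over all units of a fit, called under 0.05. On simulated data with 200 changed genes among 7089 units, 59% were recovered at a log2 of 0.5 and 95% at 1. Of the calls made there, 6.35% and 3.06% were false. Noise was drawn independently per unit, while the data have more called units and correlated neighbours, so these shares may not carry over. The alternatives were no centring, no dye term, arrays scaled to equal spread, rows tested singly, fewer arrays, stricter calls and each array left out. Genes named were the 12 highest and lowest called with TSA, up to 3 called per list, 6 per direction of the other comparisons, and EcR and br; others are marked as picked later or belong to a list or run described. Members and the 27 lists were chosen with earlier results of these data known. Choosing genes by a ratio or a difference favours TSA and untreated arrays that do not overlap. The share of all units without overlap is not given here. Ecdysone arrays were not used.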

Additional observations from a re-analysis of the deposited data

Results flagged for a closer look

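In 105 named genes with 4 untreated values, 8 had 1 array far from the other 3, and chance alone flags about 1 in 20 such groups. Array 2945 was the one in sls (4.24, the others 1.49 to 1.79), mRpL33 (2.16, the others -0.35 to 0.02), CG13908 (-0.36, the others 1.58 to 1.82), Nup54 (0.56, the others -0.60 to -0.49) and Aatf (-2.40, the others -0.81 to -0.54). Array 2955 was the one in Ythdc1 (-2.37, the others -1.16 to -0.95) and dom (-0.44, the others -0.55 to -0.54), and array 2907 in COX4L (-0.30, the others -1.14 to -1.04). In dom the gap is small against the TSA ratios of 0.53 and 0.48.

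The Lam ratio with TSA differed from the untreated ratio by the test of the difference in the 12 genes named for it. It was higher with TSA in Chc (3.78, on 1 untreated array), CG3817 (1.52), Aatf (1.44), rgr (1.43), cyst (1.38) and Ythdc1 (1.31). It was lower with TSA in CG3092 (-1.90), CG11227 (-1.80), Fife (-1.64), wa-cup (-1.63), Nep6 (-1.54) and CG3330 (-1.52). Treatment and array set cannot be told apart in these differences.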

How the results depend on the processing

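For Lam with TSA, the counts of higher and lower units were 767 and 399 at an adjusted p under 0.01, and 563 and 237 with a log2 of at least 0.5. Leaving out 1 array gave 262 to 1617 higher and 84 to 1324 lower, the low ends without one of the TSA Lam arrays. For TSA minus untreated the counts ran from 1 to 552 higher and from 0 to 642 lower with 1 array left out, were 172 and 190 with scaled arrays, and were 0 and 0 on the 6 arrays alone (494 and 643 unadjusted). For Lam minus Lam delta CaaX they ran from 0 to 40 and from 0 to 7, were 353 and 49 with scaled arrays, and 0 and 0 without a dye term (751 and 163 unadjusted). For the change of Dam-Lam minus that of Dam, whose alternatives were chosen after seeing the data, they ran from 219 to 974 and from 497 to 1331, and were 0 and 0 with scaled arrays (455 and 666 unadjusted). Units high in both conditions numbered 6 to 962 and units low in both 3 to 482 with 1 array left out, and 4 and 0 were at least 2-fold on all 6 arrays. On the same side of 0 on every untreated array, an alternative also chosen then, 1021 high and 491 low units called with TSA were counted. Leaving out 1 TSA array turned the sign in EcR (0.157 without array 3688 and -0.034 without 3689, adjusted p = 0.914) and in br (-0.0269 without 3688, adjusted p = 0.931, and 0.139 without 3689), and neither gene was called in limma. Of 90 named genes tested for Lam with TSA, 38 stayed called whichever TSA array was left out. The causes were not tested. No paired analysis was possible because the arrays carry no replicate number that groups share. Fewer arrays limit what can be called, and only 2 arrays carry the ratio described.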
